A study of Mus musculus with 28 samples.

Results

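Host microglia are the brain-resident macrophages that were already in the parenchyma when a mouse received a bone marrow transplant, and here they were compared between chimeras made with mutant and with control marrow. They make up 8 of the 28 libraries of the study, 4 from mutant and 4 from control chimeras, and were chosen by their labels alone. Every recipient was a lethally irradiated Cx3cr1-gfp/+ mouse, in which GFP takes the place of 1 copy of the microglial chemokine receptor gene Cx3cr1, so host cells are GFP-positive in both groups. Mutant chimeras received marrow of the genotype Vav-Cre: hDNMT3A fl/fl and control chimeras marrow of the genotype hDNMT3A fl/fl without the recombinase, and brains were taken 16 weeks later. Vav-Cre acts in blood-forming cells, so the recombined human DNMT3A allele, whose mutation the labels used here do not specify, is carried by the marrow and its descendants and not by the host microglia. The comparison asks whether host microglia differ when the marrow-derived cells around them carry that allele. GFP-positive parenchymal cells were sorted, up to 100000 per library, after digestion with actinomycin D present to hold back transcription during handling. RNA was read by MARS-seq, in which the 3′ end of each captured transcript is tagged with a unique molecular identifier (UMI) before amplification, so that molecules and not copies are counted. Age, sex and whether each library is a separate animal are not given in the sources used here, so a p-value here reflects only how these libraries varied, which may be technical.

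Microglia settle in the brain before birth, renew themselves there and survive irradiation in part. In the healthy brain they hold little major histocompatibility complex (MHC) class II, the surface dimer that presents peptides from taken-up proteins to CD4 T cells. Its alpha and beta chains (H2-Aa with H2-Ab1, and H2-Eb1 for the E molecule) are assembled with the invariant chain Cd74, which blocks the groove until H2-DM exchanges its remnant for peptide, while H2-O restrains H2-DM. The chain, loading and invariant-chain genes are switched on together by the coactivator Ciita, which docks on a set of proximal promoter elements: the X element bound by the RFX complex (Rfx5, Rfxap, Rfxank) and the Y element, an inverted CCAAT box bound by NF-Y.

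The class II promoters are shown because genes that match the same element patterns differed in whether they passed the test below. RefSeq promoter entries were found for 8 of the 10 class II members listed. Each window is the 150 bases that end just before the annotated start, from GRCm38.p6 (the assembly of mm10), printed 5′ to 3′ on the gene's own strand. Capitals mark the X letters searched (CNAGNNAC, the core of the element) and the Y letters (ATTGG) on that strand. H2-Eb1 lies on the plus strand at chr17:34305717-34305866, H2-Aa on the minus strand at chr17:34287824-34287973, H2-DMb1 on the plus strand at chr17:34153041-34153190 and H2-Ob on the plus strand at chr17:34238755-34238904.
H2-Eb1: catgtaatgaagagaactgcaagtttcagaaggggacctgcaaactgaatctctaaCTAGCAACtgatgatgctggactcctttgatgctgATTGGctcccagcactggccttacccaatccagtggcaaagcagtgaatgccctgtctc
H2-Aa: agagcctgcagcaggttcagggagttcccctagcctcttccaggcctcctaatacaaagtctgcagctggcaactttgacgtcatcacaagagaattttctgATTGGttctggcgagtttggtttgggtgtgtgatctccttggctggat
H2-DMb1: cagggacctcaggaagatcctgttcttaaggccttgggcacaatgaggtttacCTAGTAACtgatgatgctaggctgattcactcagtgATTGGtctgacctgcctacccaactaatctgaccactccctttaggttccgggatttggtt
H2-Ob: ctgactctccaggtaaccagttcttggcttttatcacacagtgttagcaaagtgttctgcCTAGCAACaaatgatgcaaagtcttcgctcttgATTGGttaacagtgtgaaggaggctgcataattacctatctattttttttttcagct
The X letters begin 94 bases before the start in H2-Eb1, 97 in H2-DMb1 and 90 in H2-Ob, and the Y letters follow after gaps of 27, 28 and 25 bases. H2-Aa holds the Y letters 48 bases before its start and no exact match to the X letters in this window. It does hold ctggcaac, which has g where the X letters have A, so the search does not show that the element is absent. With both strands searched, 23.4% of 32851 promoter windows of this length held the X letters, 24.5% the Y letters and 5.45% both. H2-Eb1 also holds the Y letters on the opposite strand, 35 bases before the start. A match is a description of the letters and not a measured site.

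The host microglia libraries were the deeper of the parenchymal ones. Control libraries held 2314237 ± 403529 UMIs (SD, n = 4) and mutant libraries 1911442 ± 434861, so that 3 UMIs, the limit taken for a gene with none, correspond to 1.033 to 1.469 and 1.205 to 1.971 CPM, a gene's UMIs relative to the library's own total on the usual scale. These limits cover counting error only. The label was checked against defining markers. P2ry12, the microglial ADP receptor, stood at 4000 ± 235.4 CPM in control and 3380 ± 1048 in mutant libraries, against 420 and 337.1 in donor-derived cells of the parenchyma. Sall1, a transcription factor of resident microglia, stood at 345.3 ± 16.06 and 324.2 ± 26.34 CPM, against 20.9 and 13.33 in the donor-derived cells. Of 30 homeostatic microglia genes tested, 0 passed in either direction by edgeR's quasi-likelihood test and 0 had an unadjusted p under 0.05, with a median log2 fold of -0.04 beside 0.02 over all genes tested (-0.03 without mutant library 4 and -0.01 without control library 1). Mouse Dnmt3a, which is not the marrow's human allele and so does not check the genotype, had 125.8 ± 2.836 and 111.8 ± 6.857 CPM (log2 fold -0.14 ± 0.13, adjusted p = 1).

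Mutant library 4 stood apart from the other 7. On the first principal component, which held 44.1% of the variance among the 8 libraries, it lay at -36.64 while the rest lay between -1.1 and 11.91. Its P2ry12 level was 1907 CPM against 3474 to 4360 in the other mutant libraries, and its Cx3cr1 level was 487.9 CPM against 1132 to 1362. Its summed neutrophil marker level was 1591 CPM, the top of a range of 629.2 to 1591 in mutant and 601.1 to 969.8 in control libraries. The mitochondrial share of its UMIs was 0.114%, the same as control library 3 and below the 0.204% to 0.349% of the other 6. The folds of the called genes and of those nearest to the threshold are therefore given with and without it.

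Across the genome few genes differed. Of 12327 genes tested, 8 passed an adjusted p of 0.05 in edgeR's quasi-likelihood test fitted over all 28 libraries, which is 0.0649%. The genes higher in mutant chimeras were 7 (0.0568%), namely H2-Ab1, H2-Eb1, Cd74, Ddit4, Mgl2, Klf2 and Cxcr4. The single gene that was lower (0.00811%) was Gm45640. At an unadjusted p under 0.05 there were 463 genes (3.76%), 298 higher (2.42%) and 165 lower (1.34%). The calls depend on the libraries that share the fit: with host microglia alone the same test called 0 genes (543 at unadjusted p), with the 4 groups of the parenchyma, donor and host, it again called 0 (304 at unadjusted p), and without mutant library 4 it called 0 (336 at unadjusted p). DESeq2 called 15, and all 8 were among them. The 8 genes kept the sign of their fold in every alternative that tested them, which was 16 each and 14 for Cxcr4.

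**Figure D1:**
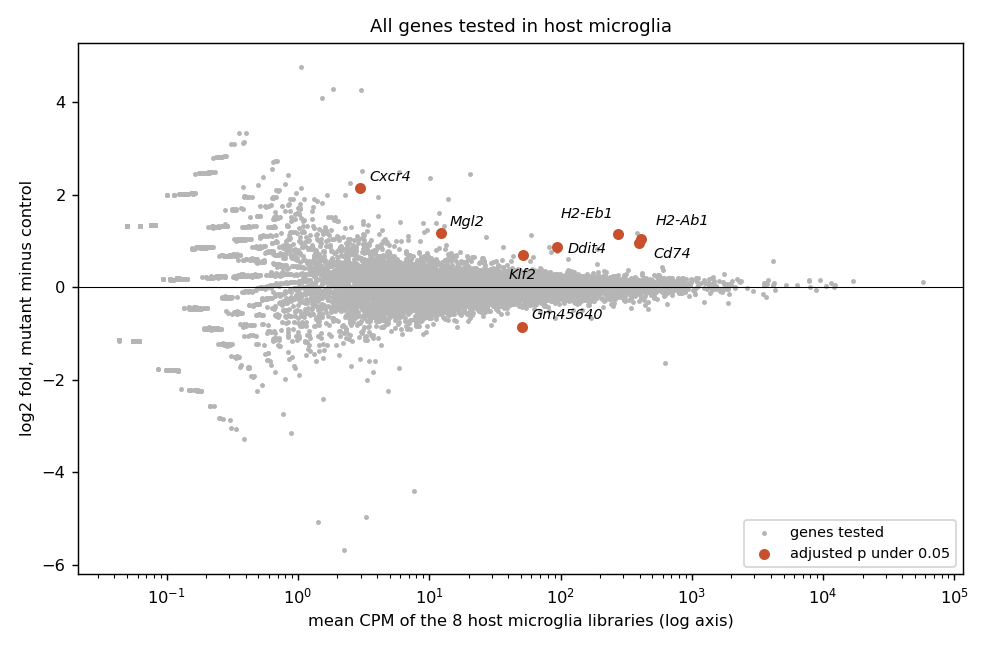
Log2 fold change, mutant minus control host microglia, against the mean level of each gene over the 8 libraries in CPM on a log axis. Each grey dot is 1 of the genes tested, and the 8 orange dots passed an adjusted p of 0.05, with 7 above and 1 below zero.

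The class II genes that rose were H2-Ab1, H2-Eb1 and Cd74, each about doubled. H2-Ab1, the beta chain of the A molecule (mm10 chr17:34257689-34269419), was at 269.5, 267.4, 342.2 and 215.9 CPM in control libraries 1 to 4 and at 345.6, 550.7, 746.5 and 548.9 CPM in mutant libraries 1 to 4. The groups did not overlap, although mutant library 1 lay just above control library 3. The log2 fold was 1.04 ± 0.17 (SE) with an adjusted p of 0.018. H2-Eb1, the beta chain of the E molecule (mm10 chr17:34305867-34316674), was at 136.7, 198.4, 226.7 and 135 CPM in control and 221.8, 411, 483 and 385.9 CPM in mutant libraries. Here mutant library 1 fell just below control library 3, so the groups overlapped by this single pair. Its log2 fold was 1.14 ± 0.20 with an adjusted p of 0.0259. Cd74, the invariant chain, was at 249.6, 288.7, 322.7 and 238.7 CPM in control and 347.2, 535.7, 726.1 and 474.4 CPM in mutant libraries, with no overlap. Its log2 fold was 0.96 ± 0.17 with an adjusted p of 0.0259. In pooled RNA, more cells with class II transcripts and more transcripts per cell cannot be told apart.

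H2-Aa, the alpha chain that pairs with H2-Ab1, had the same size of difference and did not pass. It was at 226.8, 212.7, 352.5 and 170.5 CPM in control and 307.4, 521.7, 743.2 and 534.9 CPM in mutant libraries, with mutant library 1 below control library 3. Its log2 fold was 1.17 ± 0.24 with an adjusted p of 0.0896. The chain genes and Cd74 moved in step from library to library, with library 1 the lowest and library 3 the highest of the mutant group for all 4 genes. Their summed level was 882.6, 967.2, 1244 and 760.1 CPM in control and 1222, 2019, 2699 and 1944 CPM in mutant libraries. Without mutant library 4 the log2 folds of H2-Ab1, H2-Eb1, Cd74 and H2-Aa were 1.01, 1.10, 0.97 and 1.13, and the adjusted p-values 0.118, 0.124, 0.118 and 0.372. Without mutant library 1 they were 1.21, 1.33, 1.11 and 1.36, and all 4 genes passed, with adjusted p-values of 1.01e-06, 1.06e-06, 3.24e-05 and 0.00227. In the fit of host microglia alone the folds were 1.02, 1.13, 0.94 and 1.15, with adjusted p-values of 0.781 for the first 3 genes and 0.87 for H2-Aa. By limma's voom none of the 4 genes passed (adjusted p = 0.0781, 0.069, 0.138 and 0.138). By DESeq2 all 4 passed (adjusted p = 1.08e-05, 1.08e-05, 0.000146 and 0.00018).

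**Figure D2:**
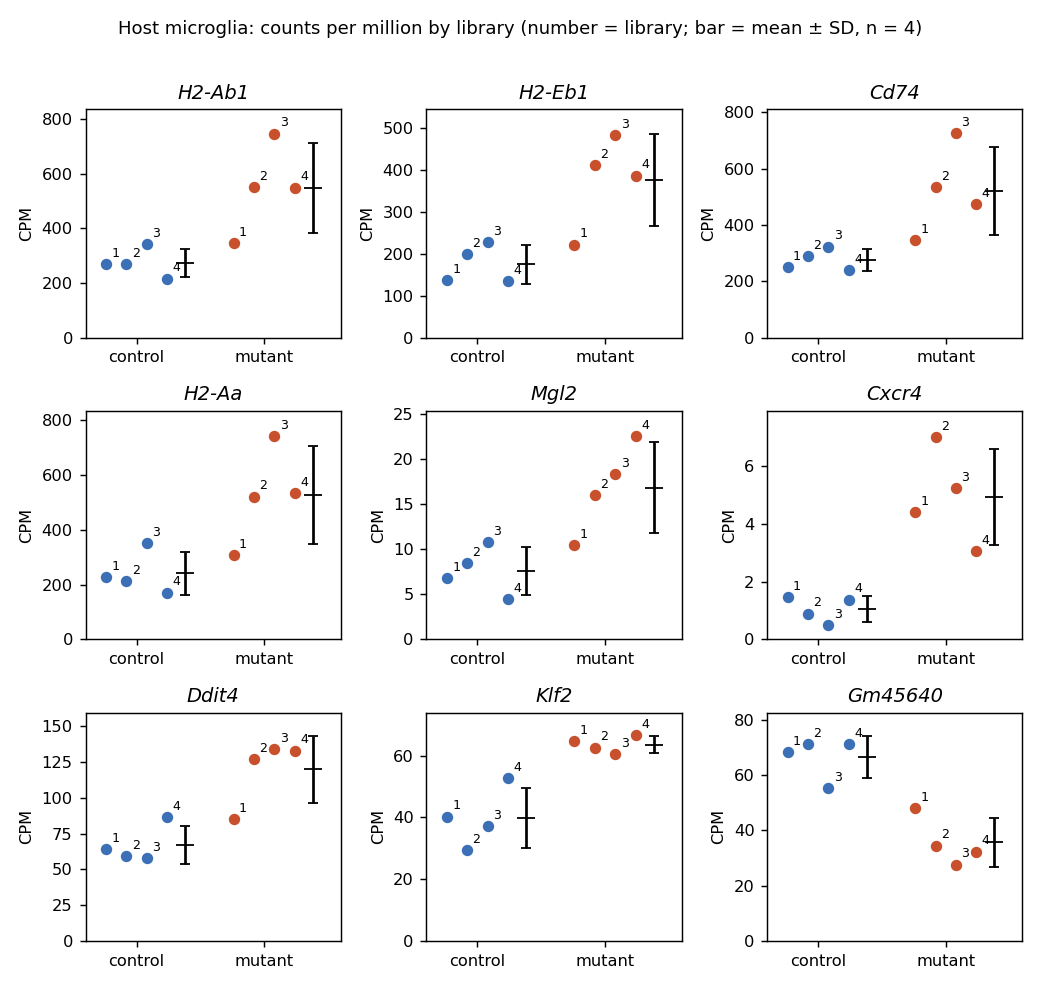
Levels in CPM, on linear axes from 0, of the 8 genes that passed and of H2-Aa, which did not, in the 4 control (blue) and 4 mutant (orange) host microglia libraries. Numbers name the library, and the black bars are the mean ± SD. Mutant library 1 is the lowest mutant library for the 4 class II genes, Mgl2 and Ddit4, and the highest for Gm45640.

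The peptide-loading genes of the same family did not pass. H2-DMa stood at 687.2 ± 23.25 CPM in control and 720.4 ± 30 in mutant libraries (log2 fold 0.10 ± 0.11), and H2-DMb1 at 270.8 ± 6.758 and 284 ± 23.3 (0.10 ± 0.12). These are the 2 chains of H2-DM, which were already abundant in control host microglia. H2-Oa and H2-Ob, the chains of H2-O, had log2 folds of 0.21 ± 0.13 and -0.05 ± 0.15, and H2-DMb2 had 0.23 ± 0.23. Over the 5 loading genes the summed level ran from 1094 to 1140 CPM in control and from 1134 to 1230 CPM in mutant libraries. In all, 3 of 9 tested class II genes passed, all higher, against 0.0568% of all genes, and the median log2 fold of the 9 was 0.23 against 0.02 (0.21 without mutant library 4 and 0.42 without mutant library 1). The family was put forward for these data because of its chains, so the count is a description. In the promoter windows above, H2-DMb1 and H2-Ob match the same X and Y patterns as H2-Eb1, with log2 folds of 0.10 and -0.05 against 1.14. The matches are not identical: the X letters are CTAGCAAC in H2-Eb1 and H2-Ob and CTAGTAAC in H2-DMb1. The longer Y form CTGATTGG is in H2-Eb1 and H2-Aa and not in H2-DMb1 or H2-Ob. H2-Oa, whose window is not printed, also holds CTGATTGG, with the X letters CCAGCAAC 28 bases before its Y letters, and had a log2 fold of 0.21. Among these windows the longer form is found in H2-Eb1, which passed, and in H2-Aa and H2-Oa, which did not. H2-Ab1 and Cd74, which passed, have no window here, and the part of the promoter letters was not tested.

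The regulators of class II transcription gave no call. Ciita, the coactivator, was close to the limit of detection, with 24 UMIs over the control and 33 over the mutant libraries. Its level was 1.454, 4.004, 0.9792 and 3.444 CPM in control and 3.616, 3.504, 3.285 and 7.327 CPM in mutant libraries (log2 fold 0.76 ± 0.43, adjusted p = 1). The groups overlapped, and the highest value was that of mutant library 4, without which the log2 fold was 0.43. The RFX subunits Rfx5, Rfxap and Rfxank had log2 folds of -0.07 ± 0.24, 0.09 ± 0.15 and 0.25 ± 0.16. Of 11 regulators tested 0 passed, with a median of -0.07. Of 21 interferon gamma response genes 0 passed, with a median of 0.03, and 4 were higher at unadjusted p (2.42% over all genes). Among these 4 was the immunity-related GTPase Iigp1 (1.43 ± 0.54), which did not overlap but held only 1.106 CPM in control and 2.895 CPM in mutant libraries.

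**Figure D3:**
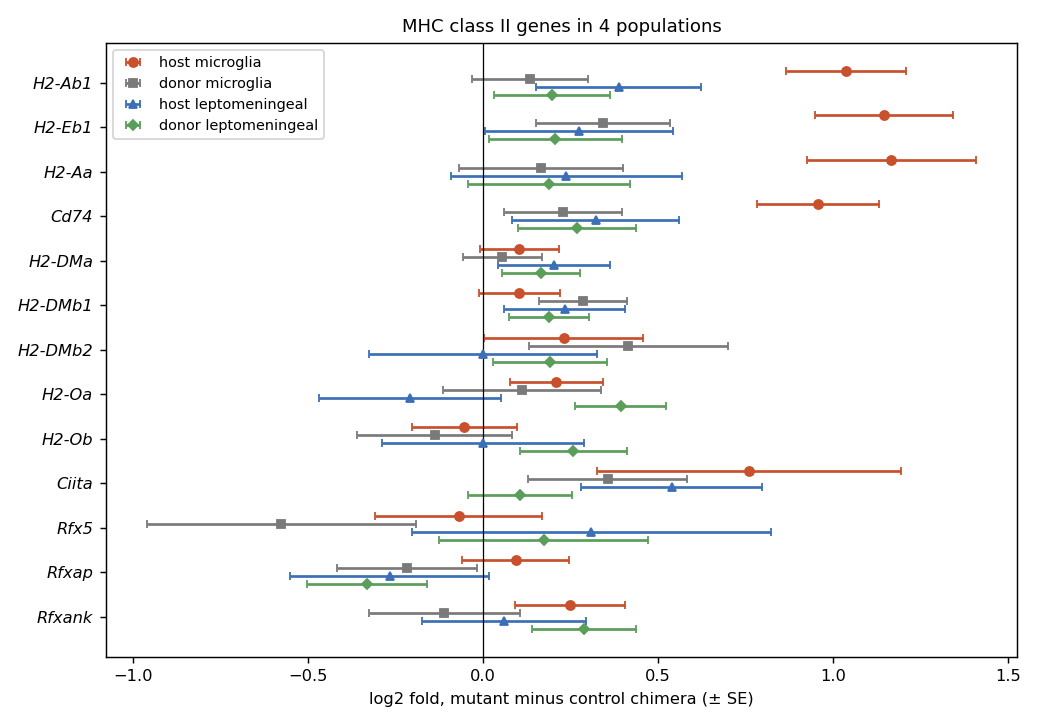
Log2 fold change (mutant minus control chimeras, ± SE) of the class II genes and of Ciita and the RFX subunits in host microglia (orange circles), donor microglia (grey squares), host leptomeningeal cells (blue triangles) and donor leptomeningeal cells (green diamonds). In host microglia the 3 chain genes and Cd74 lie near 1 and the loading genes near 0.

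Class I presentation was described beside class II because both display peptides to T cells. Of 22 class I genes tested 0 passed, with a median log2 fold of 0.09. The classical gene H2-D1 was at 1015 ± 51.9 CPM in control and 1133 ± 81.92 in mutant libraries (0.19 ± 0.10, adjusted p = 1). The class Ib gene H2-Q7 was at 9.693, 8.898, 6.855 and 12.05 CPM in control and 22.9, 14.52, 18.4 and 14.04 CPM in mutant libraries. These did not overlap, and the log2 fold of 0.92 ± 0.23 did not pass (adjusted p = 0.188, or 0.268 without mutant library 4). H2-Q6, with no overlap either, had 0.62 ± 0.18 (adjusted p = 0.584). H2-Q6 and H2-Q7 are near-identical genes whose reads the counting may have split, so neither is certain as a single gene.

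Mgl2 and Cxcr4 rose from low levels. Mgl2, a galactose-binding lectin of border macrophages and some dendritic cells (mm10 chr11:70130329-70137550), was at 6.785, 8.453, 10.77 and 4.477 CPM in control and 10.45, 16.02, 18.4 and 22.59 CPM in mutant libraries. Mutant library 1 lay below control library 3, so the groups overlapped. The log2 fold was 1.17 ± 0.24 with an adjusted p of 0.0374, and without mutant library 4 it was 0.97 with an adjusted p of 0.34. Mgl2 resembles its neighbour Clec10a in sequence, so some of its counts may belong to that gene. It was the only one of 23 border macrophage genes to pass (0.0649% over all genes), and their median log2 fold was 0.01.

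Cxcr4, the receptor of the chemokine Cxcl12 (mm10 chr1:128588199-128592293), had the largest fold of the 8 genes and the fewest molecules. Control libraries held 3, 2, 1 and 4 UMIs and mutant libraries 11, 14, 8 and 5. As levels these were 1.454, 0.8898, 0.4896 and 1.378 CPM against 4.42, 7.009, 5.257 and 3.053 CPM, with no overlap. The fitted log2 fold was 2.15 ± 0.46 with an adjusted p of 0.0461, but 3 of the 4 control libraries are at or under 3 UMIs, so the size of the fold is loosely held. Without mutant library 4 it was 2.27 with an adjusted p of 0.118. Of 16 chemokine and adhesion receptor genes tested, Cxcr4 alone passed (0.0649% over all genes), and the median log2 fold was 0.04. At unadjusted p 3 were higher and 1 lower (2.42% and 1.34% over all genes). The integrin gene Itgal of this list had 1.41 ± 0.36 (adjusted p = 0.283) and passed in DESeq2 (adjusted p = 0.0494).

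Ddit4 and Klf2 rose at moderate levels. Ddit4, an inhibitor of mTOR complex 1 that stress and glucocorticoids induce (mm10 chr10:59949669-59951834), was at 63.98, 59.17, 57.77 and 86.79 CPM in control and 85.19, 127.2, 134 and 133.1 CPM in mutant libraries. Mutant library 1 lay below control library 4, and the other 3 mutant libraries lay above all controls. The log2 fold was 0.87 ± 0.17 (adjusted p = 0.027). Klf2, a Krüppel-like transcription factor that restrains inflammatory activation of myeloid cells (mm10 chr8:72319033-72321656), was at 40.23, 29.36, 37.21 and 52.7 CPM in control and 64.69, 62.58, 60.45 and 66.55 CPM in mutant libraries. The mutant libraries lay close together and above all controls. The log2 fold was 0.70 ± 0.15 (adjusted p = 0.0374). Without mutant library 4 the folds of Ddit4 and Klf2 were 0.78 and 0.65, with adjusted p-values of 0.19 and 0.215.

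Klf2 was the only one of 10 Krüppel-like family genes tested to pass (0.0649% over all genes). The relatives with the highest levels, Klf3, Klf13 and Klf7, had log2 folds of -0.16 ± 0.12, -0.13 ± 0.13 and 0.01 ± 0.14, and Klf6 and Klf4 had 0.04 ± 0.14 and 0.10 ± 0.16. Tsc22d3, which encodes the glucocorticoid-induced leucine zipper protein, was at 42.65, 52.94, 44.07 and 53.38 CPM in control and 60.27, 80.6, 72.28 and 84.26 CPM in mutant libraries. The groups did not overlap, and the log2 fold of 0.65 ± 0.14 missed the threshold (adjusted p = 0.0504). Without mutant library 4 it was 0.56 (adjusted p = 0.416). Tsc22d3 passed in 5 of 16 alternatives, among them DESeq2 (adjusted p = 0.00919) and limma's voom (0.0365). Per1, a clock gene with glucocorticoid response elements, had 0.57 ± 0.16 (adjusted p = 0.587). Of 17 glucocorticoid response genes tested, Ddit4 passed (0.0568% over all genes), 4 were higher at unadjusted p (2.42% over all genes) and the median log2 fold was 0.17. Others of the list stood near zero, such as the receptor Nr3c1 itself (0.00 ± 0.11), Fkbp5 (0.09 ± 0.15) and Sgk1 (0.12 ± 0.13). The median of the list was 0.09 without mutant library 4 or without control library 2.

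Gm45640 was the only lower gene that passed. It is a provisional transcript model of GENCODE (biotype TEC), at chr8:90876581-90878476 on the plus strand of mm10. It lies inside Chd9, a chromatin remodeller gene on the same strand, in an intron and over none of its exons, so counting by strand cannot tell it from unspliced Chd9 RNA. It was at 68.34, 71.18, 55.33 and 71.29 CPM in control and 48.22, 34.54, 27.6 and 32.36 CPM in mutant libraries, with no overlap. The log2 fold was -0.85 ± 0.17 (adjusted p = 0.0259), and without mutant library 4 it was -0.83 (adjusted p = 0.118). Chd9 itself was at 42.17, 47.6, 41.62 and 54.76 CPM in control and 56.25, 39.55, 36.8 and 20.15 CPM in mutant libraries, which overlapped (-0.24 ± 0.18, adjusted p = 1).

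Among the other genes that were lower without overlap, none passed. Junb, a subunit of the immediate early transcription factor AP-1, came nearest, at 407.6, 372.8, 392.2 and 431.2 CPM in control and 268.8, 286.9, 310.8 and 274.2 CPM in mutant libraries. The gap between the groups was wider than either group's range, and the log2 fold was -0.46 ± 0.11 (adjusted p = 0.0896), or -0.47 without mutant library 4 (adjusted p = 0.268). It passed in DESeq2 (adjusted p = 0.00177) and in limma's voom (0.0123). Of 26 immediate early genes 0 passed, and Ier2 was also lower without overlap (-0.36 ± 0.13, adjusted p = 1), whereas the heat shock gene Hspa1a was higher without overlap (0.60 ± 0.21, adjusted p = 1). The signalling adaptor Rin2 (-0.66 ± 0.18) and the scaffold Akap9 (-0.70 ± 0.20) each had an adjusted p of 0.584. Rin2 stood at 32.97 CPM in mutant library 4 and between 77.6 and 88 CPM in the other 3 mutant libraries.

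Higher genes that did not overlap and did not pass included Apoe, the main lipid carrier of brain macrophages. It was at 2649, 4197, 3232 and 3416 CPM in control and 4973, 4957, 5034 and 4670 CPM in mutant libraries. The mutant libraries were nearly equal and all above the controls, and the log2 fold was 0.58 ± 0.14 (adjusted p = 0.162), or 0.57 without mutant library 4 (adjusted p = 0.505). Ccl5, a T cell attracting chemokine also made by T cells, was at 23.75, 37.82, 33.78 and 54.07 CPM in control and 70.32, 86.11, 108.4 and 62.28 CPM in mutant libraries (1.14 ± 0.30, adjusted p = 0.587). S100a10, a partner of annexin A2, had 0.82 ± 0.23 (adjusted p = 0.584) and the Golgi protein gene Golga3 0.85 ± 0.23 (adjusted p = 0.479). Of all genes tested, 3.39% did not overlap between the groups, 1.61% higher and 1.78% lower.

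Pathways outside antigen presentation gave few calls. Of the 39 gene lists described, those with a called member were class II, the Krüppel-like family, the glucocorticoid response, mTOR and stress, border macrophages, chemokine and adhesion receptors, and microglia transcription factors, the last through Klf2 again. Of 32 type I interferon response genes 0 passed, with a median log2 fold of 0.12. Of 23 disease-associated microglia genes 0 passed, with a median of 0.04. For complement and phagocytosis (24 genes tested), the median was 0.01. For DNA methylation genes (14 tested) it was 0.05, and 0 passed in either.

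**Figure D4:**
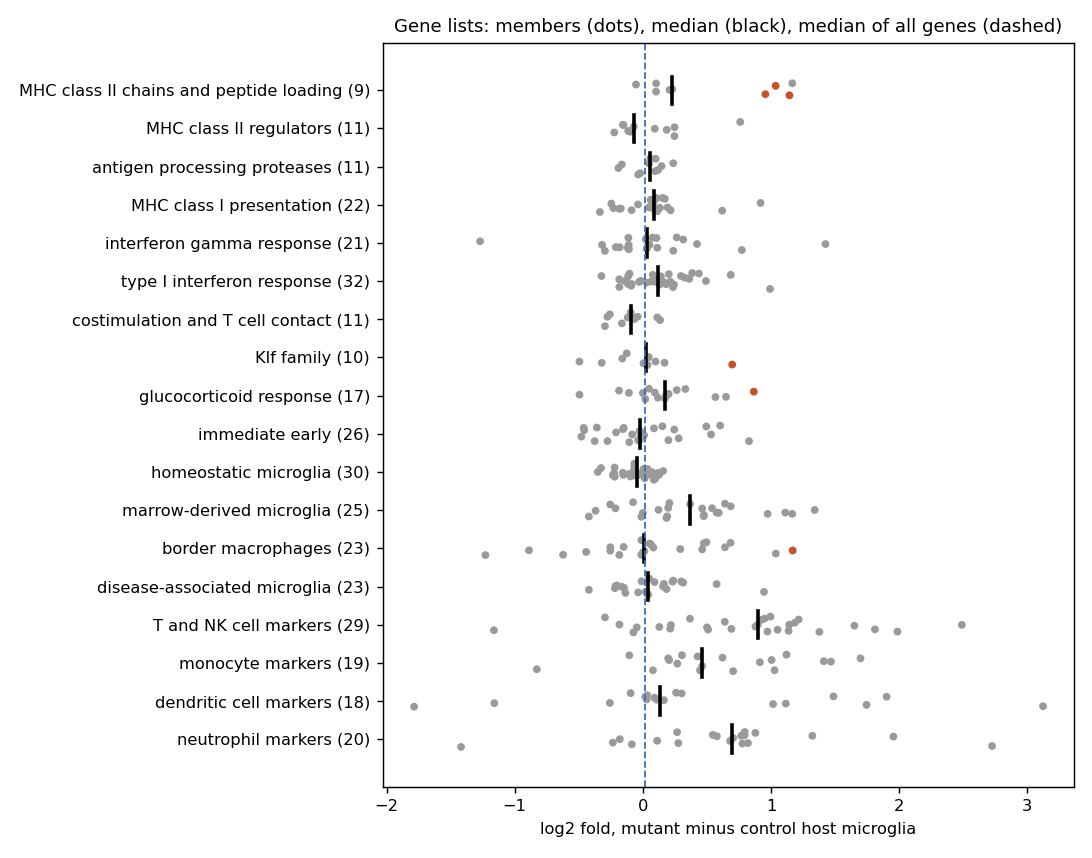
Log2 fold change (mutant minus control host microglia) of each tested member of 18 gene lists, with the number tested in brackets, as dots with random vertical spread. Orange dots passed an adjusted p of 0.05, black bars are list medians and the dashed line is the median of all genes (0.02). The T and NK cell markers have the highest median, 0.90, with no member that passed.

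The summed T and NK cell markers were higher in each mutant library than in any control library, as were H2-Ab1 and Cd74. Of 29 T and NK cell markers tested 0 passed and 24 had a fold above zero, where the median of all genes was 0.02. At unadjusted p 11 were higher (against 2.42% of all genes), and 5 were higher without overlap (against 1.61% of all genes). By DESeq2, Ccl5 of this list passed (adjusted p = 0.00919). Their median log2 fold was 0.90, or 0.79 without mutant library 4. In the fit of host microglia alone only 8 members passed the filter on low counts, with a median of 0.56. The summed level ran from 111 to 172.6 CPM in control and from 206.4 to 278 CPM in mutant libraries. Much of it was Ccl5, and without Ccl5 the sum was 87.24, 102.8, 118.5 and 118.5 CPM in control and 139.4, 149.7, 169.5 and 144.1 CPM in mutant libraries, still without overlap. The defining T cell gene Cd3e held 1, 2, 2 and 3 UMIs in control and 7, 5, 7 and 8 UMIs in mutant libraries (0.8467 and 3.7 CPM, adjusted p = 0.641). Trac, the T cell receptor alpha constant gene, held 16 UMIs over the control and 34 over the mutant libraries. Trbc2, a T cell receptor beta constant gene, held 52 UMIs over the control and 83 over the mutant libraries. Its levels overlapped between the groups (log2 fold 1.00 ± 0.34). The NK cell marker Nkg7 was not higher, at 7.111 ± 3.538 CPM in control and 6.817 ± 2.207 in mutant libraries (-0.07 ± 0.34). The part of these cells in the class II result was not tested.

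Other myeloid cell types were described in the same way. Of 25 marrow-derived microglia genes 0 passed, 7 were higher and 1 lower at unadjusted p (2.42% and 1.34% over all genes), and the median log2 fold was 0.37. It was 0.25 without mutant library 4, 0.21 without mutant library 3, 0.22 without control library 4 and 0.19 over the 19 members that the fit of host microglia alone kept. By DESeq2, H2-Aa and Apoe of this list passed (adjusted p = 0.00018 and 0.0494). Their summed level ran from 5402 to 7120 CPM in control and from 7830 to 8615 CPM in mutant libraries. Most of it was Apoe, and without Apoe and H2-Aa the sum was 2527, 2710, 2676 and 2681 CPM in control and 2782, 3024, 2837 and 2625 CPM in mutant libraries, which overlapped. Monocyte markers (19 tested, 0 passed) had a median of 0.46 (0.25 without mutant library 4 and 0.74 without mutant library 1). At unadjusted p 3 were higher and 0 lower (2.42% and 1.34% over all genes). Their sums ran from 263.4 to 285.9 CPM in control and from 249.5 to 377.3 CPM in mutant libraries. Neutrophil markers (20 tested, 0 passed) had a median of 0.69, which was 0.01 without mutant library 4. Dendritic cell markers (18 tested, 0 passed) had a median of 0.14 (0.08 without mutant library 4). Of these markers 4 were higher and 0 lower at unadjusted p (2.42% and 1.34% over all genes), and 14 had a fold above zero. Their sums overlapped, with 3071 to 3337 CPM in control and 2816 to 3179 CPM in mutant libraries. The fit of host microglia alone kept only 8 members each of the monocyte, neutrophil and dendritic cell lists. Medians there were 0.35, 0.71 and 0.05, and 1, 0 and 1 members were higher at unadjusted p. Of 10 mast cell and basophil markers 7 were at 0 in all 8 libraries. Astrocyte markers (17 tested, 0 passed) had a median of 0.30 and summed to 158.1 to 190 CPM in control and 188.6 to 212.8 CPM in mutant libraries.

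Donor-derived cells hold far more class II RNA than host microglia, so the host differences were set beside the donor levels. The rise of H2-Ab1 in host microglia was 274 CPM, equal to 4.57% of its level in donor microglia of mutant chimeras. For H2-Eb1, H2-Aa and Cd74 the share was 3.97%, 5.05% and 3.62%. Other chosen genes with higher levels in donor than in host microglia gave shares below, among and above these. Lower shares were 0.791% for Ms4a7, 1.82% for Apoe, 2.2% for Clec12a, 2.32% for Lyz2, 3.17% for Pf4 and 3.22% for H2-DMa. Cxcr4, at 3.62%, equalled Cd74. The loading gene H2-DMb1, at 4.16%, lay above Cd74 and H2-Eb1, and Mgl2, at 12.3%, lay above all of the class II genes. Against donor leptomeningeal cells the order was different: the 4 class II genes gave 1.45% to 2.07%, Mgl2 1.31%, Clec12a 1.72%, Ms4a7 3.2%, Apoe 4.48% and Cxcr4 10.3%. Clec12a, a C-type lectin receptor, was at 6.785, 4.449, 4.407 and 2.411 CPM in host microglia of control and 8.036, 11.01, 9.856 and 8.548 CPM of mutant chimeras, with no overlap (log2 fold 1.11 ± 0.29, adjusted p = 0.309). Ms4a7, a membrane protein of marrow-derived and border macrophages, was at 12.12, 18.24, 22.52 and 13.78 CPM in control and 28.93, 24.53, 19.06 and 15.88 CPM in mutant libraries, which overlapped. Its highest mutant value was in library 1, where the class II genes were lowest. For Klf2, also higher in donor than in host microglia, the share was 31.4% of the donor microglia level, above all of the class II genes. The part of donor-derived RNA in the class II result was not tested beyond these values.

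**Figure D5:**
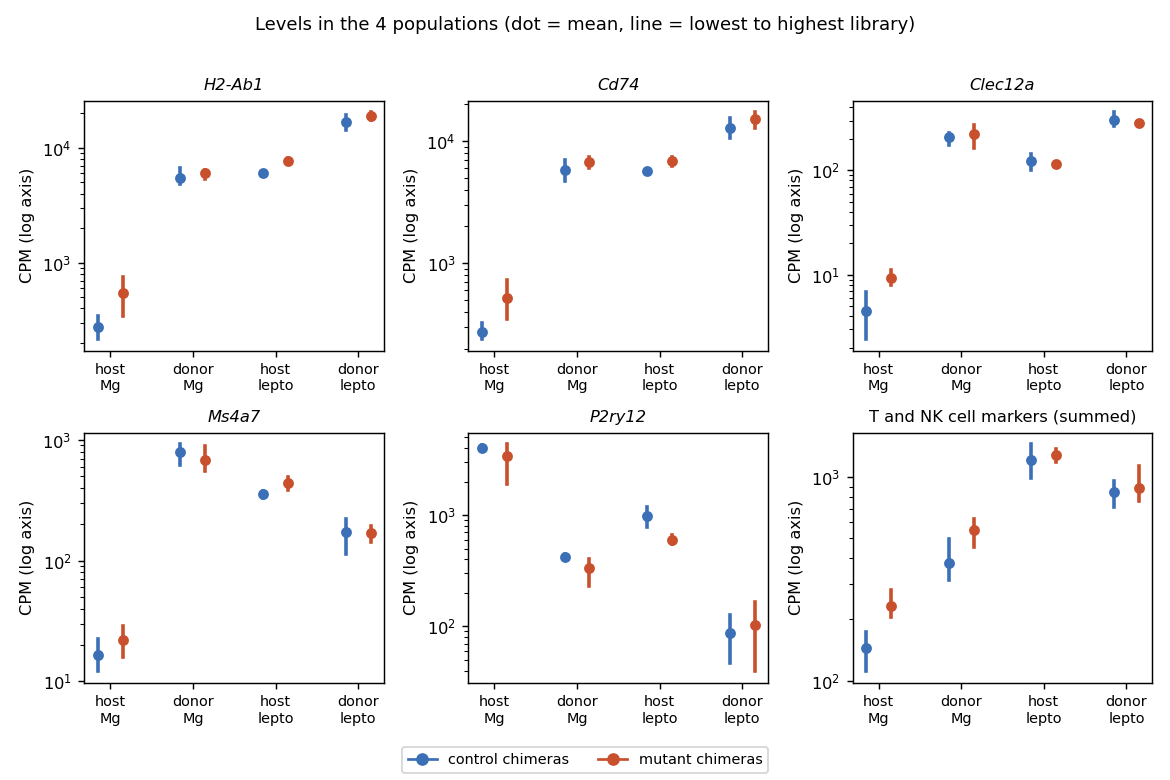
Levels in CPM on log axes of 5 genes and of the summed T and NK cell markers in host microglia, donor microglia, host leptomeningeal and donor leptomeningeal cells of control (blue) and mutant (orange) chimeras. Dots are means and lines run from the lowest to the highest library (n = 4, or 2 for host leptomeningeal cells). H2-Ab1, Cd74, Clec12a and Ms4a7 are lowest and P2ry12 highest in host microglia.

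The genotype difference was then compared between host microglia and the other populations. In donor microglia, the marrow-derived cells of the parenchyma, H2-Ab1 was at 5515 ± 823.7 CPM in control and 5998 ± 461.1 in mutant chimeras (log2 fold 0.13 ± 0.17). The donor minus host difference of the log2 folds was -0.90 ± 0.24, which did not pass (adjusted p = 0.372). For H2-Eb1 that difference was -0.80 ± 0.27, for Cd74 -0.73 ± 0.24 and for Klf2 -0.65 ± 0.23, with adjusted p-values of 0.666, 0.649 and 0.655. Ddit4 had a log2 fold of 1.18 ± 0.30 in donor microglia and 0.91 ± 0.35 in host leptomeningeal cells (n = 2 each), beside 0.87 in host microglia, where its level was highest. Neither of those folds passed (adjusted p = 0.145 and 0.786). Over all genes 4 passed the donor minus host comparison (0.0324%, with 6.06% at an unadjusted p under 0.05), and none of the 8 called genes was among them.

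Those 4 genes were Spint1, Commd10, Gatm and Apobec3, and in host microglia none of them passed. Spint1, an inhibitor of serine proteases, was at 288.7 ± 17.08 CPM in host microglia of control and 277.8 ± 32.47 CPM of mutant chimeras, beside 11.91 ± 4.205 and 71.52 ± 14.52 CPM in donor microglia. The log2 fold was -0.02 ± 0.13 in host and 2.63 ± 0.28 in donor microglia. Commd10, a subunit of an endosomal recycling complex, had 0.29 ± 0.16 in host and 1.93 ± 0.22 in donor microglia. Gatm, the first enzyme of creatine synthesis, and Apobec3, a cytidine deaminase that restricts retroviruses, had 0.35 ± 0.13 and 0.16 ± 0.11 in host microglia.

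Host cells of the leptomeninges, the membranes over the brain surface, were compared with host microglia (n = 2 each for the leptomeninges). There H2-Ab1 was at 6040 ± 433.6 CPM in control and 7645 ± 652.6 CPM in mutant chimeras (log2 fold 0.39 ± 0.24). The leptomeningeal minus parenchymal difference was -0.65 ± 0.29 for H2-Ab1, -0.66 ± 0.25 for Klf2 and -1.94 ± 0.61 for Cxcr4, with adjusted p-values of 0.98, 0.883 and 0.742. By edgeR 0 genes passed this comparison (603 at unadjusted p, 4.89%), and by DESeq2 10 did.

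The genes whose level followed H2-Ab1 most closely over the 8 host microglia libraries were listed as a description, leaving out the called genes. Pearson's r of log2 CPM was 0.992 for H2-Aa, 0.969 for Lyz2 (lysozyme, a broad myeloid gene), 0.951 for Ptgds (prostaglandin D synthase), 0.942 for Fxyd5 (a regulator of the sodium pump) and 0.938 for Ppme1 (a phosphatase methylesterase). With each group's mean removed, r was 0.981 for H2-Aa and between 0.867 and 0.898 for the other 4. All points share their library's depth and composition. Lyz2 was at 523.9, 520.1, 608.1 and 492.9 CPM in control and 594.3, 711.4, 710.3 and 688.1 CPM in mutant libraries, with mutant library 1 below control library 3 as for H2-Eb1 and H2-Aa (log2 fold 0.37 ± 0.11, adjusted p = 0.689).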

How the data were processed

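The authors deposited 1 table with, per the file headers, raw, normalized and rlog columns for each library. The deposited raw columns hold UMI counts per gene on the mm10 build, per the submitters' processing notes; an aligner was not given in the sources used here. Signal (counts over a size factor) in the deposited normalized columns and log2 values in the deposited rlog columns were not used. Of 14617 genes edgeR's filterByExpr kept 12327, and no gene of the deposited table had a best library under 6 UMIs. The test was edgeR's 4.0.16 quasi-likelihood test with TMM scaling and a mean for each of the 8 groups over all 28 libraries, Benjamini-Hochberg adjusted at 0.05. CPM values are scaled to the library's own total, without TMM. Alternatives were DESeq2 1.42.0, its size factors, limma 3.58.1 voom, no filter, fewer groups, a replicate block and leaving out each library. Members and lists were chosen with earlier results of these data known. Named genes were those called, the 10 higher and 10 lower non-overlapping genes of smallest p at 10 CPM or more, up to 4 per list, and a fixed set; Chd9, Trac, Nr3c1, Fkbp5 and Sgk1 were added after their values were seen. Positions are from GENCODE M21. Tests were checked on simulated counts.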

Additional observations from a re-analysis of the deposited data

Results flagged for a closer look

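Among the values tested for a library far from its group, 7 of 170 groups of 4 libraries were flagged (4.12%), where chance flags about 1 in 20. Ddit4 was at 85.2 CPM in mutant library 1 and at 127 to 134 CPM in the other mutant libraries. Per1 was at 33.4 CPM in control library 2 against 52 to 53.9 in the other controls, and Hspa1a at 116 CPM in control library 4 against 81 to 85.7. Among summed lists, costimulation genes stood at 2120 CPM in control library 2 (others 2290 to 2300), Fc receptors at 9350 CPM in control library 1 (others 9000 to 9050) and Toll-like receptors at 4820 CPM in mutant library 3 (others 4610 to 4640). Erythroid markers summed to 140 CPM in mutant library 1 and to 9.77 to 17.5 CPM in the other mutant libraries.

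The effect of the marrow genotype differed between donor and host microglia for 4 genes in edgeR's quasi-likelihood test of the difference. Donor minus host, the log2 difference was 2.66 ± 0.31 for Spint1 (adjusted p = 6.9e-07), 1.64 ± 0.28 for Commd10 (adjusted p = 0.00373), -0.98 ± 0.18 for Gatm (adjusted p = 0.0126) and -0.89 ± 0.17 for Apobec3 (adjusted p = 0.0191).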

How the results depend on the processing

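The count of 8 genes called in host microglia became 15 with DESeq2's test and 5 with limma's voom. Of those 5, 3 were shared with the 8, namely Ddit4, Klf2 and Gm45640. The count became 0 with only the host microglia libraries, 0 with only the parenchyma libraries, and 0 to 11 when 1 library was left out. Leaving out control library 1 or 2, or mutant library 2, 3 or 4, gave 0, leaving out control library 4 gave 3 and leaving out mutant library 1 gave 11; edgeR still had 336 to 490 genes at unadjusted p where it called 0. The cause of these changes was not tested. The 4 donor minus host differences became 14 with DESeq2 and 2 to 7 with 1 library left out (2 without control library 4, 7 without mutant library 1), and the 0 leptomeningeal minus parenchymal differences became 10 with DESeq2. H2-Ab1 passed in 7 of 16 alternatives, Ddit4 and Gm45640 in 7, H2-Eb1, Cd74, Klf2 and Mgl2 in 6, and Cxcr4 in 3 of 14, with no change of sign. Same-numbered control and mutant libraries were not shown to be pairs, since their deviations correlated at -0.121, 0.126, -0.045 and -0.221 and no control library matched its own number best. With the replicate block the count was 9 over all libraries (7 shared) and 0 in host microglia alone (416 at unadjusted p). Depth limits Cxcr4, Ciita and the T cell genes, which rest on few UMIs per library.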
